A study of Sus scrofa with 9 samples.

Results

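The miRNAs described here are the 4 arms of 2 striated-muscle precursors, mir-208a and mir-1-2, chosen by name from the conserved table of the study: miR-208a-3p, miR-208a-5p, miR-1-2-3p and miR-1a-2-5p. They are 4 of 526 arms in all, 100 of them conserved. A hairpin precursor can yield a mature strand from its 5′ side, the 5p arm, and from its 3′ side, the 3p arm. The libraries hold small RNA of the longissimus dorsi, the long back muscle, of female Jinhua pigs. The groups were fetuses at gestation day 90 (E90), newborns (day 0), and animals of 30 days, 180 days and 7 years. The 3 youngest groups had a single library, and the adult groups, day 180 and 7 years, had 3 libraries each. The study used 15 pigs for 9 libraries, and no source used here gives which animals went into which library. The spread between libraries may therefore be technical.

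miRNAs are cut from hairpin precursors by Drosha and then Dicer, and the seed, bases 2 to 8 of the mature strand, leads the choice of target transcripts. miR-1 is known as one of the main miRNAs of skeletal and heart muscle, where it restrains growth and proliferation programmes. In human and mouse, mir-1-2 lies within the MIB1 gene beside a miR-133a gene, and a separate gene gives the same mature miR-1. miR-208a is known as a heart miRNA, encoded in an intron of MYH6, the gene of the alpha myosin heavy chain, while its relative miR-208b lies in the slow myosin gene MYH7.

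The 2 precursors are shown because the place of each product in them is part of the results. In the deposited coordinates of the Sscrofa10 assembly, mir-208a occupies chromosome 7, 81043844 to 81043943, on the minus strand, and mir-1-2 occupies chromosome 6, 99481915 to 99482025, on the plus strand. The files name no gene at either place. The table gives the mir-1-2 hairpin under 2 names, mir-1-2 for its 3p arm and mir-1a-2 for its 5p arm, with the same letters. Each precursor is written 5′ to 3′ as DNA letters, with the consensus sequences of the 5p arm and then of the 3p arm in capitals.
mir-208a: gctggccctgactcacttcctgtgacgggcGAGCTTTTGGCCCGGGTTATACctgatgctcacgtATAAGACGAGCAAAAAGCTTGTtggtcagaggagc
mir-1-2: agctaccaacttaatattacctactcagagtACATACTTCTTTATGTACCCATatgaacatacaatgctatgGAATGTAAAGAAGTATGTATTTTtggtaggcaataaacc

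The consensus sequences of the arms follow with the seed in capitals.
miR-208a-3p: aTAAGACGagcaaaaagcttgt
miR-208a-5p: gAGCTTTTggcccgggttatac
miR-1-2-3p: gAATGTAAagaagtatgtatttt
miR-1a-2-5p: aCATACTTctttatgtacccat
These 4 seeds differ from each other. Among the 495 arms left after merging identical entries of the putative new table, none of these seeds was that of any other consensus sequence.

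The consensus miR-1-2-3p did not begin where mature miR-1 is known to begin in mammals. The seed of mature miR-1 is known to be GGAATGT, and these letters start at base 72 of the mir-1-2 precursor, which puts the known first base at base 71. The consensus began at base 73, 2 bases further downstream, and its own seed was AATGTAA. No source used here gives how reads with the known start were counted, so these copies cannot be read as the level of miR-1. In a fold of mir-208a predicted from its letters (minimum free energy −42.2 kcal/mol), 18 of the 22 bases of each arm were paired, and both arms ended 2 bases past the partner of the other arm's first base, the overhang that Drosha and Dicer are known to leave. In the fold predicted for mir-1-2 (−37.3 kcal/mol), 20 of 22 bases of the 5p arm and 22 of 23 of the 3p arm were paired, and the overhangs were 5 bases for the 3p arm and 3 for the 5p arm.

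Libraries held from 3476614 high-quality reads at day 30 to 12259667 in day 180 replicate 1. Levels are given in RPM, copies per 1000000 of these reads. The copies of all arms in both tables were 136117 at E90, 85576 at day 0, 36248 at day 30, 25038 to 39534 at day 180 and 5994 to 13820 at 7 years, so a second scale, copies per 100000 tabled copies, is given where it matters. An arm without an entry in a library was taken as not listed, with a floor of 3 copies, which is 0.245 RPM in the deepest library and 0.863 RPM at day 30. Counting intervals are exact 95% intervals and cover counting error only. The floor is a fixed number of copies, and a fold above it allows for no counting error on either side. At E90, for example, the exact upper limit for an arm not listed was 0.732 RPM, against a floor of 0.595 RPM. All 4 arms together had 233 copies in the 9 libraries.

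miR-208a-3p was listed at 2 of the 5 stages, day 0 and day 30. It had 97 copies at day 0, or 21.7 RPM (95% interval 17.6 to 26.5), and 27 copies at day 30, or 7.77 RPM (5.12 to 11.3). It was not listed at E90, in any of the 3 libraries of day 180 or in any of the 3 of 7 years. The level at day 0 was 2.79 times that at day 30 per high-quality read (counting interval 1.81 to 4.45). Per tabled copy the ratio was 1.52 and its counting interval, 0.985 to 2.43, included no difference. Each of these stages had a single library, so neither ratio has a replicate check. In bulk muscle, fewer cells of a type and less RNA per cell cannot be told apart.

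The lack of a listing in the other libraries was set against their depth. In RPM, the measured day 0 level of miR-208a-3p was 36.5-fold above the floor of E90. It was 65.3-fold to 88.7-fold above the floors of day 180, and 26.9-fold to 67.9-fold above those of 7 years. Per tabled copy these folds were 51.4 for E90, 9.46 to 14.9 for day 180 and 2.26 to 5.22 for 7 years. The day 0 counting interval, from 17.6 RPM or 91.9 per 100000 tabled copies, lay above the upper limits of all these libraries. The highest of those limits were 0.991 RPM and 61.5 per 100000, both in 7 years replicate 2. At the day 0 share of tabled copies, E90 would have held 154 copies, the day 180 libraries 44.8, 30.4 and 28.4, and those of 7 years 13.8, 6.79 and 15.7. Measured against tabled copies, the fold for 7 years replicate 2 is therefore the weakest, since that library held the fewest. The day 30 level stood less far above the floors of 7 years, 9.63-fold to 24.3-fold in RPM and 1.49-fold to 3.43-fold per tabled copy. Its counting interval, from 49.1 per 100000 tabled copies, overlapped the upper limit of 7 years replicate 2.

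**Figure D1:**
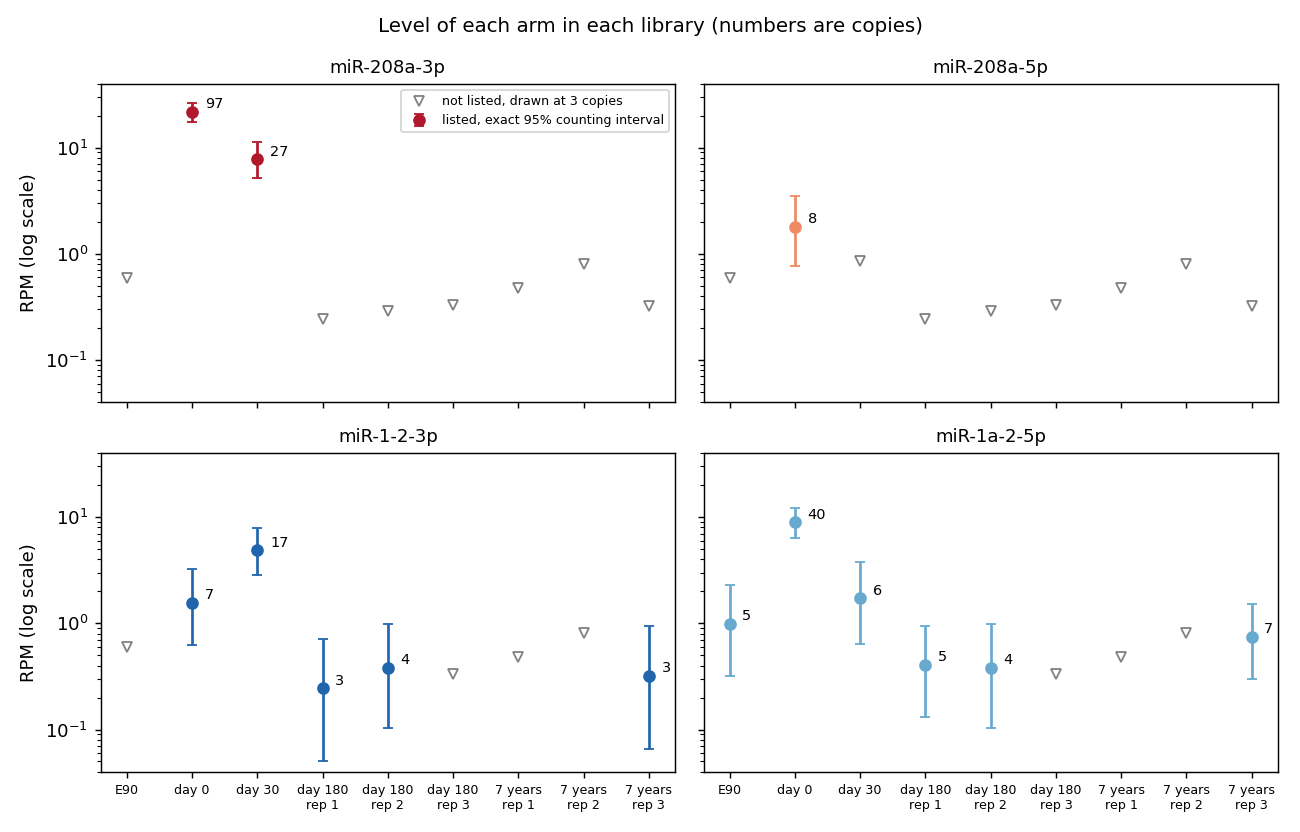
Level of each arm in RPM (log scale) in each of the 9 libraries. Filled points are listed values with exact 95% counting intervals and their copies, and open triangles mark the floor of 3 copies where an arm was not listed: miR-208a-3p is at 21.7 RPM in newborns and 7.77 RPM at day 30 and is listed nowhere else, while the miR-1 arms reach into day 180 and 7 years replicate 3.

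miR-208a-5p, the minor arm of the same hairpin, was listed at day 0 alone, with 8 copies or 1.79 RPM (0.773 to 3.53). This was 3.01-fold above the floor of E90 in RPM. At day 30, where miR-208a-3p had 27 copies, the 5p arm would have had 3.39 copies at its day 0 share of tabled copies and 6.22 at its day 0 RPM. The measured day 0 level was 1.13-fold above the floor of day 30 per tabled copy and 2.07-fold in RPM. With counting error the stages overlapped on both scales. The day 0 interval was 4.04 to 18.4 per 100000 tabled copies, and the upper limit for day 30 was 10.2 per 100000, or 1.06 RPM. Per tabled copy its day 0 level was below the floors of 5 of the 6 later libraries, and no difference from those was detectable on that scale. In RPM it was 2.22-fold to 7.31-fold above the floors of the 6 later libraries. Its RPM interval overlapped only the upper limit of 7 years replicate 2, 0.991 RPM.

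Of the 100 conserved miRNAs, miR-208a-3p ranked 26th among the 78 listed at day 0 and 30th among the 67 listed at day 30. Its day 0 copies are 78.2% of all its copies. Among the 495 arms, 35 had at least 97 copies at day 0, and 31 of these were listed in at least 1 library of day 180 or 7 years. Only 3 of the 35 were missing from E90 and from all 6 of those libraries: miR-208a-3p and both arms of PN-868884, a putative new hairpin. The listing at day 0 and day 30 alone was shared by 12 arms, 2 of them conserved. In 4 of the 12 both stages had 10 or more copies: miR-208a-3p, PN-40675019-5p with 88 and 49 copies, PN-40675019-3p with 38 and 10, and PN-96223057-5p with 12 and 17. These arms were singled out after their values were seen, and the counts are descriptions.

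**Figure D2:**
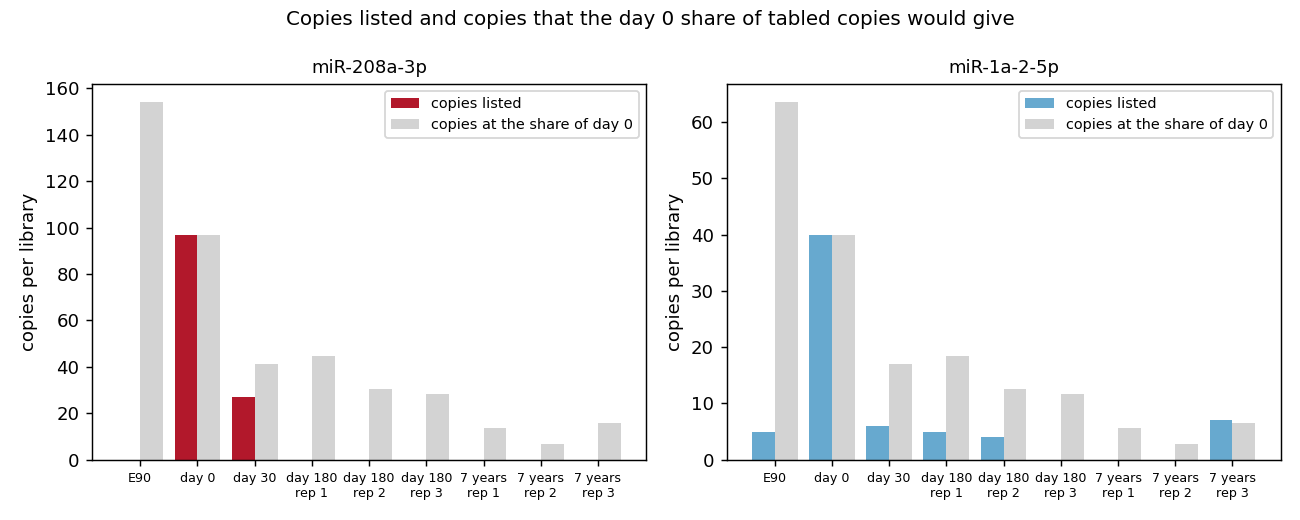
Copies listed in each library (coloured bars) beside the copies that the day 0 share of tabled copies would give (grey bars), for miR-208a-3p and miR-1a-2-5p. miR-208a-3p has no listed copies where 154 would be found at E90, and miR-1a-2-5p has 7 copies in 7 years replicate 3 where its day 0 share gives 6.46.

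miR-1a-2-5p, known as the minor side of the mir-1-2 hairpin, was listed in 6 of 9 libraries and was highest at birth. It had 5 copies at E90 (0.992 RPM), 40 at day 0 (8.95 RPM, interval 6.39 to 12.2) and 6 at day 30 (1.73 RPM). Replicates 1 and 2 of day 180 had 5 and 4 copies (0.408 and 0.383 RPM) and replicate 3 none, a mean of 0.264 ± 0.229 RPM (SD, n = 3). At 7 years replicate 3 had 7 copies (0.746 RPM) and replicates 1 and 2 none, a mean of 0.249 ± 0.430 (SD, n = 3). The 2 adult ages overlapped, and day 0 stood above every other library. The day 0 level per high-quality read was 9.02 times that of E90 (counting interval 3.56 to 29.3) and 5.19 times that of day 30 (2.18 to 14.97).

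On the scale of tabled copies the arm was not lower at every later age. It stood at 3.67 per 100000 at E90, 46.7 at day 0, 16.6 at day 30, 12.6 and 14.9 in day 180 replicates 1 and 2, and 50.7 in 7 years replicate 3. Day 0 and 7 years replicate 3 did not differ beyond counting error on this scale (ratio 0.923, interval 0.409 to 2.44), whereas in RPM the ratio was 12.0 (5.32 to 31.8). Day 0 exceeded E90 on either scale, 12.7-fold per tabled copy (5.02 to 41.3). 7 years replicates 1 and 2 would have held 5.70 and 2.80 copies at the day 0 share, close to the floor, so their lack of a listing carries little weight there.

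miR-1-2-3p, the side that carries mature miR-1, was listed in 5 libraries and was highest at day 30. It had no listing at E90, 7 copies at day 0 (1.57 RPM, interval 0.630 to 3.23) and 17 at day 30 (4.89 RPM, 2.85 to 7.83). Day 180 replicates 1 and 2 had 3 and 4 copies (0.245 and 0.383 RPM) and replicate 3 none, a mean of 0.209 ± 0.194 (SD, n = 3). At 7 years replicate 3 had 3 copies (0.320 RPM) and the others none, a mean of 0.107 ± 0.184 (SD, n = 3). Most of these values are at or next to the floor, and the adult ages overlapped. Day 30 exceeded day 0 3.12-fold per high-quality read (counting interval 1.23 to 8.91) and 5.73-fold per tabled copy (2.26 to 16.4), again as 1 library against 1. Per tabled copy, day 30 and 7 years replicate 3 did not differ beyond counting error (ratio 2.16, interval 0.625 to 11.5), whereas in RPM the ratio was 15.3 (4.43 to 81.5).

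The arms of mir-1-2 thus peaked in different libraries. Whether reads with the known start of miR-1 are among its 3p copies is not known, so the shares below are of listed copies and need not be those of the hairpin. The 3p arm made 14.9% of the 47 copies of both arms at day 0 (95% exact binomial interval 6.20% to 28.3%) and 73.9% of the 23 copies at day 30 (51.6% to 89.8%), and these intervals did not overlap. The intervals cover counting error only. Each stage is a single library, so a difference between the ages has no replicate check. At E90 the 3p arm was 0 of 5 copies, which allows up to 52.2%. The adult libraries that listed the hairpin had 37.5% of 8 copies, 50.0% of 8 and 30.0% of 10, with intervals from 6.67% to 84.3%, too wide to order. Over libraries, the share was 29.6 ± 39.1% (SD, n = 3) up to day 30 and 39.2 ± 10.1% (SD, n = 3) later, a difference smaller than the spread (two-sided exact permutation p = 0.8, smallest possible 0.1). For mir-208a the 3p arm made 92.4% of 105 copies at day 0 (85.5% to 96.7%) and all 27 copies at day 30 (87.2% to 100%), so its arm use did not differ detectably between them. At day 0, where both hairpins had most copies, most of those listed for mir-208a were thus of the 3p arm and most of those listed for mir-1-2 of the 5p arm.

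**Figure D3:**
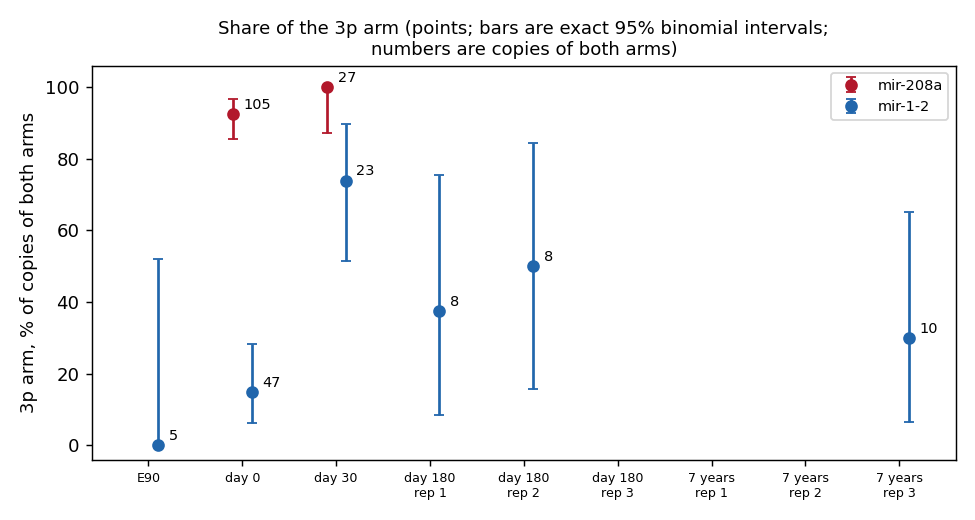
Share of the 3p arm among the listed copies of both arms, in percent, in each library that listed the hairpin. Points carry exact 95% binomial intervals and the copies of both arms: mir-1-2 is at 14.9% in the single library of day 0 and at 73.9% in that of day 30, and mir-208a is above 90% in both of its libraries.

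The place of the most abundant sequence of each arm was compared between libraries. Only that sequence is given per library, so the spread of read ends cannot be seen. For an arm listed in few libraries, a match to the consensus carries little weight. miR-208a-3p covered bases 66 to 87 of its precursor at day 0 and day 30, and miR-208a-5p bases 31 to 52 at day 0, both 22 nt long and identical to the consensus. miR-1a-2-5p covered bases 32 to 53, 22 nt, in all 6 libraries that listed it. miR-1-2-3p was at bases 73 to 95, 23 nt, at day 0, at day 30 and in day 180 replicate 1. It differed in the other 2 libraries that listed it, which are shown with bases 2 to 8 in capitals.
Day 180 replicate 2: tATGAACAtacaatgctatg
7 years replicate 3: aATGTAAAgaagtatgtatttt
The sequence in 7 years replicate 3 began 1 base later than the consensus and ended at the same base. That in day 180 replicate 2 lay at bases 53 to 72, from the last base of the 5p arm to the base before the 3p arm, and shared no base of the precursor with the consensus 3p arm, so the 4 copies given there under miR-1-2-3p are at least in part pieces of the loop. With these 4 copies left out of the 3p arm, a choice made after seeing the data, the difference of the 3p share between libraries up to day 30 and later ones turned from -9.56 to 7.10 percentage points (two-sided exact permutation p = 0.9).

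**Figure D4:**
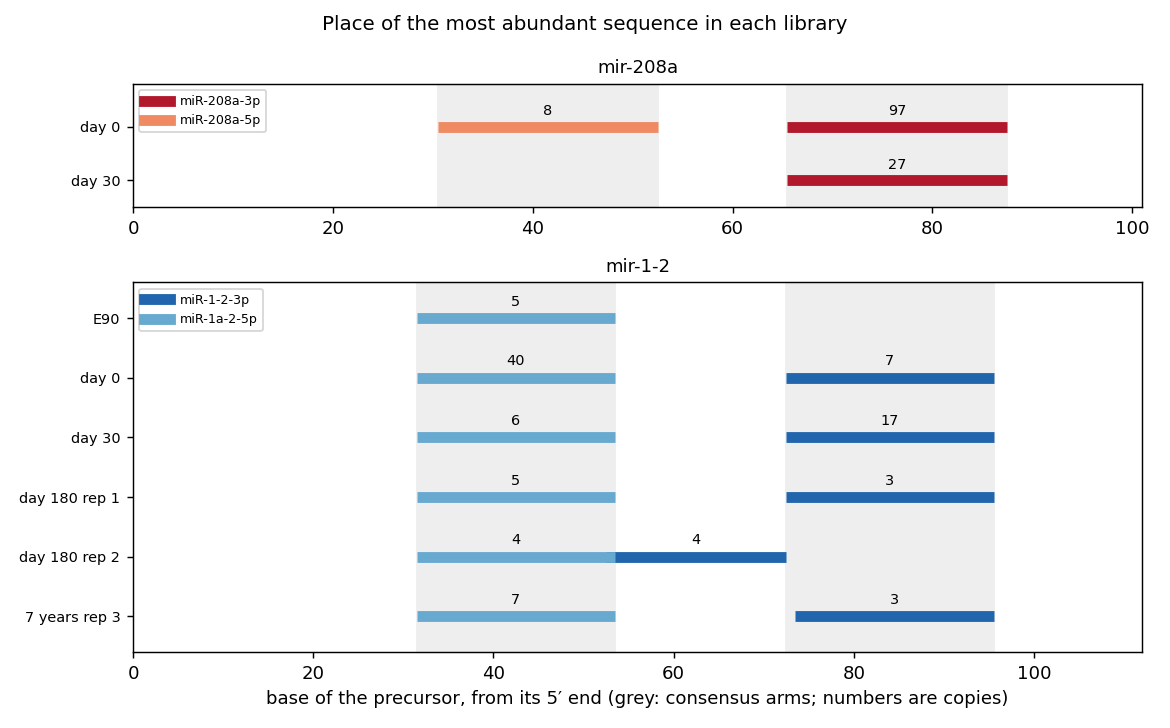
Place of the most abundant sequence of each arm along its precursor, in bases from the 5′ end, with a line per library and the copies of the arm above each bar. Grey bands are the consensus arms: every bar of mir-208a and of miR-1a-2-5p fills its band, and the miR-1-2-3p bar of day 180 replicate 2 lies at bases 53 to 72, from the last base of the 5p band to the edge of the 3p band.

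Libraries up to day 30 were set against the 6 later ones to ask whether these miRNAs separate developing from adult muscle. Each early library is of another age, and the later ones repeat only day 180 and 7 years, so the test does not measure the spread between ages. In RPM, miR-1a-2-5p was higher in each of the 3 early libraries than in each of the 6 later ones, with means of 3.89 and 0.256 RPM (two-sided exact permutation p = 0.0119, the smallest that 3 against 6 allows). The counting intervals of E90 (0.322 to 2.31 RPM) and day 30 (0.633 to 3.76) overlapped that of 7 years replicate 3 (0.300 to 1.54). With counting error these libraries are thus not separated. Of all 495 arms, 13.9% had early libraries above all later ones in RPM. Per tabled copy the groups of miR-1a-2-5p overlapped, with means of 22.3 and 13.04 per 100000 (exact permutation p = 0.571), and 8.28% of all arms were separated. None of the other 3 arms separated the groups, since E90 listed none of them. miR-208a-3p had means of 9.82 and 0 RPM and miR-1-2-3p of 2.15 and 0.158 RPM (exact permutation p = 0.0833 for each), and miR-208a-5p of 0.597 and 0 RPM (exact p = 0.333). Leaving out E90, the only early library without either arm, left day 0 and day 30 above all later libraries for miR-208a-3p and for miR-1-2-3p. The exact permutation p was then 0.0357 for each, the smallest that the remaining libraries allow. That value was fixed by the choice of the library left out and is no support. Leaving out day 0 or day 30 gave 0.25 for both. The difference then went down to 3.88 RPM for miR-208a-3p without day 0 and to 0.625 RPM for miR-1-2-3p without day 30. These 4 p-values are not adjusted.

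In the edgeR quasi-likelihood fit of these groups none of the 4 arms passed the abundance filter. That fit called 54 of 91 arms (59.3%) and 38.5% as higher early. Without the filter edgeR called miR-208a-3p higher in the early libraries (log2 fold change 7.76, SE 1.96, adjusted p = 0.00159 over 495 arms), where a fitted fold against libraries at 0 is no measure of size. The other 3 arms were not called in that setting, which called 71 of 495 arms, 41 of them higher early. With a term for each stage, the fit gave no usable error for miR-208a-3p, which is at 0 in most stages. It called none of the 3 arms it tested, and miR-208a-5p did not pass its filter.

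Between day 180 and 7 years no difference was detectable for the arms of mir-1-2, and those of mir-208a were listed at neither age. The edgeR fit over 175 arms called 6 of them (3.43%), and 22 had an unadjusted p under 0.05. The mir-1-2 arms entered this fit and neither was called. The log2 fold change of miR-1a-2-5p was 0.95 (SE 2.13) and that of miR-1-2-3p 0.13 (SE 2.11) at 7 years, each with an edgeR adjusted p of 1. Such errors leave changes of several fold in either direction possible. Without 7 years replicate 3, the only library of that age to list either arm, the fitted log2 fold changes were −4.66 and −4.37, with edgeR adjusted p = 0.77 and 0.803. Those are fitted against libraries at 0 and are no measure of size. No fold is given for mir-208a. DESeq2's Wald test called neither arm of mir-1-2. Scaled by high-quality reads in place of the bulk of the tabled arms, the log2 fold change of miR-1a-2-5p was 0.04 (SE 1.71). That of miR-1-2-3p was −0.72 (SE 2.08), so that its sign turned, again without a call.

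The profiles most like those of the mir-1-2 arms were sought among the 49 other conserved arms listed in at least 5 libraries, by Pearson correlation of log2(RPM + 0.5) over the 9 libraries. For miR-1a-2-5p they were miR-539-3p (r = 0.868), miR-26b-3p (0.844) and miR-1260b-5p (0.841), against a median of 0.696 over all 49. For miR-1-2-3p they were miR-539-3p (r = 0.861), miR-96-5p (0.859) and miR-141-3p (0.834), with a median of 0.459. The miR-1-2-3p profile includes the 4 copies of day 180 replicate 2 that are at least in part pieces of the loop. Without that listing the arm would not reach the 5 libraries required. All points share the library and its depth, and the tabled copies as a whole were also lower at the adult ages. With TMM factors, a scaling by the bulk of the tabled arms that passed the filter, the highest values were 0.570 and 0.768. Of the 3 arms named for each member, 1 remained among its 3 highest, miR-539-3p in both cases. The arms of mir-208a were listed in too few libraries for this measure.

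Of 8 muscle miRNAs set as markers, arms of the mir-1-2 and mir-208a hairpins had values. The other 6, miR-133a, miR-133b, miR-206, miR-208b, miR-499 and miR-486, were not analysed here. Summed over the 4 arms, the level was 0.992 RPM at E90, 34.01 at day 0, 14.4 at day 30, from 0 to 0.767 at day 180 and from 0 to 1.07 at 7 years. Beside these, the blood marker miR-223-3p, 1 of 6 blood markers with values, was at 2.58 RPM in the fetus, 5.59 at day 0, 4.03 at day 30, 2.22 to 7.57 at day 180 and 0.959 to 3.85 at 7 years. The summed epithelial markers, 5 of 8 with values, were at 13.3, 5.59 and 14.4 RPM in the early libraries and from 0.806 to 2.20 RPM in the later ones. miR-126 of endothelium and miR-122 of liver were not analysed here. The sum of the 4 arms is no measure of muscle miRNA to set against these markers. Its miR-1-2-3p copies cannot be read as the level of miR-1, and 6 of the 8 muscle markers are not in it. The miR-1-2-3p copies of day 180 replicate 2 are at least in part pieces of the loop. The part of other cell types in the levels of the 4 arms was not tested. miR-1 is known from both skeletal and heart muscle, and miR-208a, as said above, is known as a heart miRNA. Why miR-208a was listed in libraries of back muscle was not tested.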

How the data were processed

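Per the labels' protocols, the authors cut RNA of 10 to 40 nt from a gel and sequenced it with the Illumina Genome Analyzer II. The deposited values are counts, whole numbers of copies of each arm in each library, per the file headers, beside the most abundant sequence and its length. Other deposited entries, per the file headers, are the high-quality reads of each library and Sscrofa10 coordinates. No source used here gives the aligner, the caller or the rules for counting. A few emptied lines are not reported here.

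Empty cells were counted as 0, identical entries of the putative new table, in sequence and values, were merged (526 to 495 arms), and high-quality reads were taken as library size. edgeR 4.0.16 in R 4.3.3 (TMM, filterByExpr with minimum count 10 and minimum total 15, robust quasi-likelihood, Benjamini-Hochberg, threshold 0.05) was fitted to both tables together, with a term per stage for 7 years against day 180 and with 2 groups for libraries up to day 30 against later ones. It was checked on simulated counts. DESeq2 1.42.0 was an alternative. For RPM values and arm shares, exact permutation tests (two-sided, absolute difference of means, scipy 1.17.1) were run. Hairpins were folded with ViennaRNA 2.7.2. Other tools were Python 3.11.15, pandas 2.3.3 and matplotlib 3.10.9. Named arms are the 4 members, and for those listed in at least 5 libraries the 3 conserved arms of highest correlation. Exceptions are named as such. The members, lists and tests were chosen with earlier results of these data known.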

Additional observations from a re-analysis of the deposited data

How the results depend on the processing

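Copies are few, so depth limits most statements. With empty cells set to 2 copies, which gives shallower libraries higher RPM, early minus later differences passed the exact permutation threshold for miR-208a-3p (9.68 RPM), miR-208a-5p (0.646) and miR-1-2-3p (1.95), and 7 years minus day 180 turned to 0.109 for miR-1-2-3p and 0.197 for miR-1a-2-5p. Per 100000 tabled copies the early minus later difference of miR-1a-2-5p was 9.29 and no longer passed, and its 7 years minus day 180 difference turned to 7.70 (-0.0152 RPM in the report's scale). Leaving out single libraries gave early minus later differences from 3.88 to 14.7 RPM for miR-208a-3p, from 0 to 0.895 for miR-208a-5p, from 0.625 to 3.07 for miR-1-2-3p and from 1.10 to 5.08 for miR-1a-2-5p. miR-208a-5p is at 0 throughout without the only library of day 0. For 7 years minus day 180 they gave -0.209 to -0.0159 for miR-1-2-3p and -0.264 to 0.109 for miR-1a-2-5p, and for the 3p share of mir-1-2 from -31.7 to 5.24 percentage points. Without the loop copies of day 180 replicate 2 that share differed by 7.10.

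Between 7 years and day 180 edgeR called neither arm of mir-1-2 in the alternatives that tested them. The arms of mir-208a were listed at neither age, so their lack of a call was fixed in advance. None of the 4 arms was tested with the 6 libraries of both ages alone, with or without the replicate block. Between early and later libraries edgeR called 1, miR-208a-3p, without a filter, where 71 of 495 arms were called. Without single libraries it called 0 to 1, but any of the 4 was tested only without E90, the early library that does not list miR-208a-3p, and without it that arm passes the filter. The fit without E90 called 55 of 114 arms, 37 of them higher early. Calls over all arms between 7 years and day 180 numbered 6. They numbered 14 with total high-quality reads, 17 with the conserved table alone, 2 with the 6 libraries of both ages alone and 2 to 8 without single libraries, the lowest without day 180 replicate 1 or 3 or 7 years replicate 2. Calls between early and later libraries numbered 54 and, with the conserved table alone, where fewer arms were tested, 19. With the replicate number as a block in the 6 adult libraries there was 1 call and none of the 4 arms passed the filter. The labels share only the numbers: same-numbered libraries correlated at 0.0371, -0.171 and -0.0991 in their deviations from the mean of their age over 114 arms. The causes of these differences were not tested.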
